A study of Mus musculus with 15 samples.

Results

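The genes of the mitochondrial ribosomal proteins, named Mrpl for the large subunit and Mrps for the small one, were followed across the hearts of 3 kinds of male mice. They were taken by name. Every gene whose annotated symbol begins with Mrpl or Mrps and a digit was included, and the value of each was taken from whichever of its probe sets had the highest mean over the 15 arrays, a choice that made no use of strain. This gave 76 of 18190 genes that had a probe set with a single symbol. All 76 were above the filter on dim probe sets, which left 13107 genes for testing. RefSeq's mouse gene table holds 78 protein-coding genes with such names, and the other 2, Mrpl30 and Mrpl53, were reached only by probe sets annotated to several genes and were not analysed here.

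RNA came from the apex of the heart of B6C3F1 (B6C3F1/J), C3H (C3H/HeJ) and C57Bl/6 (C57BL/6J) mice, with 5 mice of each kind and 1 array per mouse. The first are hybrids of the first generation between the other two, which are inbred strains. All mice were males of 9 to 10 weeks, were housed singly, carried an abdominal radiotelemetry transmitter implanted under tribromoethanol at 7 weeks of age and received no other treatment. The study set gene expression beside the physiology and pathology of these untreated hearts.

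Mitochondria keep a small genome of their own, which in mammals encodes core subunits of the respiratory chain and of ATP synthase. Those subunits are made inside the organelle by the mitochondrial ribosome, whose RNAs come from the mitochondrial genome and whose proteins are all encoded in the nucleus, made in the cytosol and imported. Some of these proteins descend from the bacterial ribosome and others were added in the mitochondrial lineage. The heart depends on oxidative phosphorylation for most of its ATP, and inherited defects of several of these proteins in people affect heart muscle.

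By the place of their product, 29 members belonged to the large subunit with a bacterial counterpart and 20 to the rest of the large subunit, nearly all without one. A further 16 belonged to the small subunit with a bacterial counterpart and 10 to the small subunit without one. The last member, Mrps36, was set apart, because its product is now known as a subunit of the 2-oxoglutarate dehydrogenase complex. Mrps18a and Mrps30 were counted with those 20, because structures place their products in the large subunit in spite of the names, although Mrps18a is a homologue of bacterial S18.

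The members were bright on these arrays. On the log2(signal + 16) scale used throughout, the median member had a level of 11.67, against 8.90 for all genes tested. At the top of the members stood Mrpl42, at 14.90, and at the bottom Mrpl54, at 8.85. Signals of different probe sets depend on their probes, so this order is one of signal and not of transcript number. The mean over all members was 11.77 ± 0.10 in B6C3F1, 11.70 ± 0.17 in C3H and 11.64 ± 0.15 in C57Bl/6 (SD, n = 5 arrays each). Its range over arrays was 11.62 to 11.86 in B6C3F1, 11.44 to 11.90 in C3H and 11.49 to 11.86 in C57Bl/6, so all 3 ranges overlapped.

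The labelled tissue showed its defining markers: all 8 cardiomyocyte markers were measured, and their summed level was 18.47 to 19.03 in B6C3F1, 18.43 to 18.87 in C3H and 18.65 to 19.07 in C57Bl/6. None of the 8 passed in any of the 4 limma contrasts, and at an unadjusted p under 0.05 there were 2 in C3H minus C57Bl/6, both lower in C3H. Endothelial markers were measured for 5 of 5 genes, with summed levels of 12.82 to 13.48 in B6C3F1, 12.46 to 13.21 in C3H and 13.12 to 13.41 in C57Bl/6, and 2 of the 5 passed as lower in C3H than in C57Bl/6. Fibroblast markers summed to 14.99 to 15.32 in B6C3F1, 14.86 to 15.35 in C3H and 14.69 to 15 in C57Bl/6, and their differences between C3H and C57Bl/6 ran both ways: Dcn (0.41) and Tcf21 (0.76) passed, while Col1a1 (-0.50), Col3a1 (-0.58) and Pdgfra (0.06) did not. Of 4 macrophage markers, Cd68 passed as higher (0.77) and Adgre1 as lower (-0.62) in C3H than in C57Bl/6. The red cell marker Alas2 passed as lower in C3H (-0.79).

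Control probe sets were compared by group without a test. Poly-A control RNAs added at labelling averaged 8.54 ± 0.11 on B6C3F1 arrays, 9.20 ± 0.65 on C3H arrays and 8.58 ± 0.59 on C57Bl/6 arrays (SD, n = 5 each). C3H replicate 4 (10.34) and C57Bl/6 replicate 5 (7.58) made most of that gap, since the other 4 C3H arrays averaged 8.91 and the other 4 C57Bl/6 arrays 8.83. The log2 ratio of 3′ to 5′ Gapdh control signal, a measure of RNA quality, was 0.90 ± 0.21 in B6C3F1, 0.60 ± 0.26 in C3H and 0.85 ± 0.24 in C57Bl/6. The part of the cell markers in the differences described here was not tested, and in tissue RNA fewer cells of a type and less RNA per cell cannot be told apart.

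Between the parental strains, the mitochondrial ribosomal protein genes moved in both directions and by modest amounts. Of the 76 members, 15 passed an adjusted p under 0.05 in C3H minus C57Bl/6, which is 19.7%, against 15.7% of all genes tested. Higher in C3H were 7 members (9.21%, against 7.26% of all genes), and lower in C3H were 8 (10.5%, against 8.4%). These shares of members that passed lie near those of all genes. The shares of all genes are no baseline of like level, since 75 of the 76 members lay at or above the median level. Among all genes the share that passed was 10.5% without the dim filter and 20.1% with a filter at the 60th percentile. At an unadjusted p under 0.05 in limma there were 29 members, 17 higher and 12 lower, or 38.2%, against 27.9% of all genes. The median difference of the members was 0.08 on the log2 scale, against -0.02 for all genes tested, and the members ran from -0.78 for Mrpl35 to 0.87 for Mrpl14. A difference past 1.5-fold was reached by 4 of the 15.

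**Figure D1:**
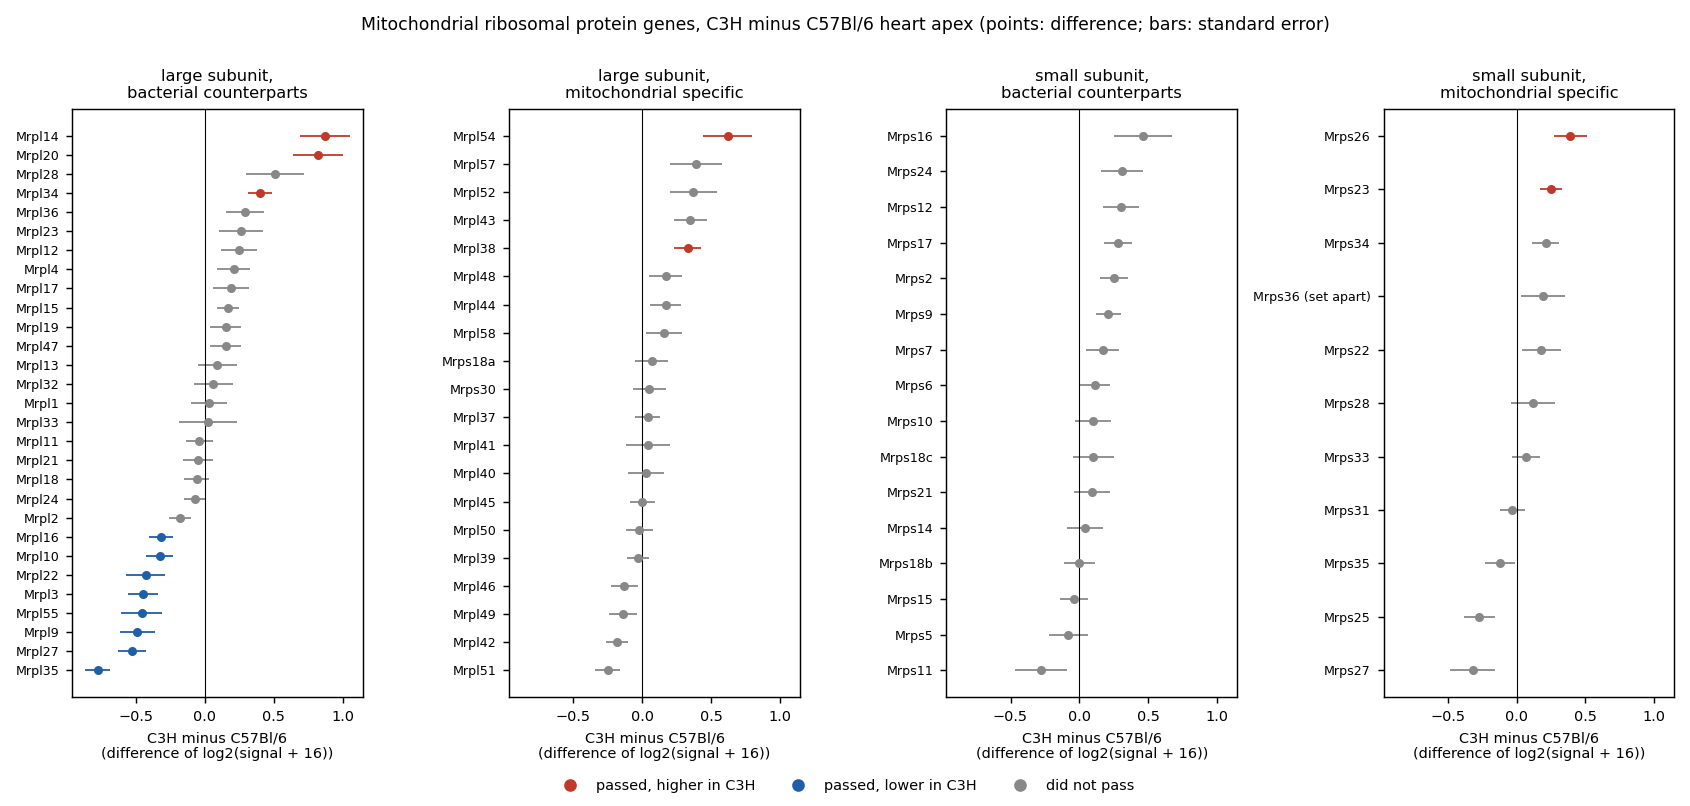
Difference between C3H and C57Bl/6 for the 76 members, drawn in 4 panels by subunit and by whether the protein has a bacterial counterpart (x axis, C3H minus C57Bl/6 on the log2(signal + 16) scale; points, limma difference; bars, standard error; red and blue, members that passed as higher or lower in C3H; grey, members that did not pass). By their brightest probe sets, all 8 members lower in C3H lie in the panel of large-subunit proteins with bacterial counterparts. It also holds 3 of the 7 higher ones. Only 2 of the 8, Mrpl27 and Mrpl35, kept their call when each array was centred on its median.

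The members that passed were counted by the part of the ribosome they belong to. Among the 29 large-subunit genes with a bacterial counterpart, 3 were higher (10.3%) and 8 lower (27.6%) in C3H than in C57Bl/6. Of all genes tested, 7.26% were higher and 8.4% lower. At an unadjusted p under 0.05 in limma, 5 of these 29 were higher and 9 lower. Among the other 20 large-subunit genes, 2 (10%) were higher and 0 lower, with 4 higher and 2 lower in limma at an unadjusted p under 0.05. Among the 10 small-subunit genes without a counterpart, 2 (20%) were higher and 0 lower, with 3 higher and 1 lower at that unadjusted level. Of the 16 small-subunit genes with a counterpart, 0 passed in either direction in limma, and 5 were higher at an unadjusted p under 0.05, a level that 27.9% of all genes reached. When each array was centred on its median, only 2 of the 8 lower members kept their call, Mrpl27 and Mrpl35. The counts also rest on the brightest probe sets. Outside the first class, further sets of Mrpl51, Mrps25, Mrps23 and Mrps5 passed as lower in C3H, and further sets of Mrpl48 and Mrps23 as higher. No test was made of the difference between these classes.

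Mrpl14 had the widest rise in C3H. Its product, a protein of the conserved core at the face where the subunits meet, also binds the assembly factor Malsu1. Mrpl14 had log2 levels of 11.28, 11.36, 11.16, 11.30 and 10.51 on the B6C3F1 arrays, 10.73, 11.38, 11.60, 11.52 and 11.56 on the C3H arrays and 10.47, 10.99, 10.33, 10.37 and 10.27 on the C57Bl/6 arrays. In C3H 4 arrays stood above every C57Bl/6 array, while the remaining C3H array, replicate 1, fell under the highest C57Bl/6 array, replicate 2. The difference between C3H and C57Bl/6 was 0.87 ± 0.18 (SE), or 1.83-fold (limma adjusted p = 0.00183).

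Mrpl20, whose bacterial counterpart binds ribosomal RNA early in assembly of the large subunit, had levels of 10.89, 11.33, 11.11, 11.15 and 10.53 in B6C3F1, 10.87, 11.28, 11.32, 11.84 and 11.62 in C3H and 10.21, 11.09, 10.56, 10.38 and 10.62 in C57Bl/6. Again it was C3H replicate 1 and C57Bl/6 replicate 2 that made the parental groups overlap. C3H was higher than C57Bl/6 by 0.82 ± 0.18, or 1.76-fold (limma adjusted p = 0.00342).

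Mrpl34 encodes one of the smallest proteins of the large subunit. It gave 11.71, 11.70, 11.56, 11.60 and 11.45 in B6C3F1, 11.63, 11.77, 11.64, 11.73 and 11.88 in C3H and 11.40, 11.54, 11.38, 11.06 and 11.29 in C57Bl/6. All C3H arrays were above all C57Bl/6 arrays, and the difference was 0.40 ± 0.09, or 1.32-fold (limma adjusted p = 0.00543).

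The other 4 higher members encode proteins without a bacterial counterpart. In the large subunit, Mrpl54 averaged 9.13 ± 0.33 in C3H and 8.5 ± 0.35 in C57Bl/6, a 1.54-fold difference (limma adjusted p = 0.0195). Mrpl38, of the central protuberance, averaged 11.09 ± 0.19 in C3H and 10.76 ± 0.06 in C57Bl/6, a 1.25-fold difference (adjusted p = 0.0386). In the small subunit, Mrps26 was 1.31-fold higher (11.32 ± 0.18 in C3H and 10.92 ± 0.13 in C57Bl/6, adjusted p = 0.0271) and Mrps23 was 1.19-fold higher (11.85 ± 0.08 in C3H and 11.60 ± 0.10 in C57Bl/6, adjusted p = 0.0321). The C3H and C57Bl/6 arrays overlapped for each of these 4 genes. Their calls were lost when some single arrays were left out, on 4 of 15 occasions for Mrpl54 (adjusted p up to 0.0629), 6 for Mrps26 (up to 0.0732), 7 for Mrps23 (up to 0.0832) and 8 for Mrpl38 (up to 0.096). The Mrpl38 set is of a type whose probes can match several transcripts. Without sets of such types the call of Mrpl38 was lost (limma adjusted p = 0.614). Its further sets differed by 0.38 and 0.25 and did not pass.

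Mrpl35 had the widest fall in C3H. It encodes a core protein of the large subunit with a bacterial counterpart. Its levels were 11.86, 11.91, 11.89, 12 and 11.92 in B6C3F1, 11.38, 11.25, 11.27, 10.98 and 11.43 in C3H and 11.92, 12.13, 12.16, 11.84 and 12.13 in C57Bl/6. Every C3H array was below every array of the other 2 groups, which overlapped each other. Mrpl35 was lower in C3H than in C57Bl/6 by 1.71-fold (difference -0.78 ± 0.09, limma adjusted p = 5.26e-06).

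Mrpl27, whose bacterial counterpart reaches towards the site where peptide bonds are formed, showed the same order of groups. It had 12.40, 12.49, 12.35, 12.54 and 12.20 in B6C3F1, 11.63, 11.89, 11.99, 11.93 and 12.14 in C3H and 12.24, 12.53, 12.44, 12.39 and 12.63 in C57Bl/6. The C3H arrays again lay below all others. The difference between C3H and C57Bl/6 was -0.53 ± 0.10, or 1.45-fold (limma adjusted p = 0.00078). Mrpl34, Mrpl27 and Mrpl35 were the 3 members whose C3H and C57Bl/6 arrays did not overlap, which is 3.95% of the members, against 11.2% of all genes tested.

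Mrpl3, which lies close to the peptidyl transferase centre and whose human counterpart is mutated in an inherited cardiomyopathy, gave 13.04, 13.02, 13.10, 12.98 and 12.86 in B6C3F1, 12.14, 12.53, 12.61, 12.66 and 12.80 in C3H and 12.83, 13.22, 13.12, 12.78 and 13.02 in C57Bl/6. The highest C3H array reached the lowest C57Bl/6 array and stayed below all B6C3F1 arrays. C3H was 1.36-fold lower than C57Bl/6 (-0.45 ± 0.11, limma adjusted p = 0.00869).

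Mrpl9, another core protein of the large subunit, had 11.14, 11.13, 11.16, 11.19 and 11.69 in B6C3F1, 11.14, 11.28, 10.99, 10.90 and 11.52 in C3H and 11.80, 11.47, 11.73, 11.74 and 11.54 in C57Bl/6. Here 4 B6C3F1 arrays lay with C3H and 1, replicate 5, with C57Bl/6. C3H was 1.41-fold lower than C57Bl/6 (-0.49 ± 0.13, limma adjusted p = 0.00968).

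Mrpl55, the counterpart of bacterial L31, had 11.66, 11.70, 11.47, 11.65 and 11.18 in B6C3F1, 10.30, 10.92, 11.11, 10.80 and 11.32 in C3H and 11.25, 11.57, 11.39, 11.20 and 11.30 in C57Bl/6. The C3H arrays spread most widely and their highest overlapped the C57Bl/6 arrays. C3H was 1.37-fold lower (-0.46 ± 0.15, limma adjusted p = 0.0425), a call that 10 of the 15 fits leaving out 1 array did not keep (adjusted p up to 0.0965).

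The remaining 3 lower members have bacterial counterparts too. Mrpl22, which lines the tunnel through which the new protein leaves, was nearly constant in C57Bl/6 (12.80 to 12.89) and scattered in C3H (11.95 to 12.92) and B6C3F1 (12.10 to 12.79). It was 1.35-fold lower in C3H than in C57Bl/6 (limma adjusted p = 0.0392). Mrpl16, near the peptidyl transferase centre, was 1.25-fold lower (12.44 to 12.88 in C3H and 12.87 to 13.07 in C57Bl/6, adjusted p = 0.019). Mrpl10, which anchors the stalk that carries Mrpl12, was 1.26-fold lower (10.98 to 11.44 in C3H and 11.30 to 11.59 in C57Bl/6, adjusted p = 0.0232). Leaving out 1 array ended the call in 8 of 15 fits for Mrpl22 (adjusted p up to 0.122), in 5 for Mrpl10 (up to 0.0666) and in 3 for Mrpl16 (up to 0.0594).

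**Figure D2:**
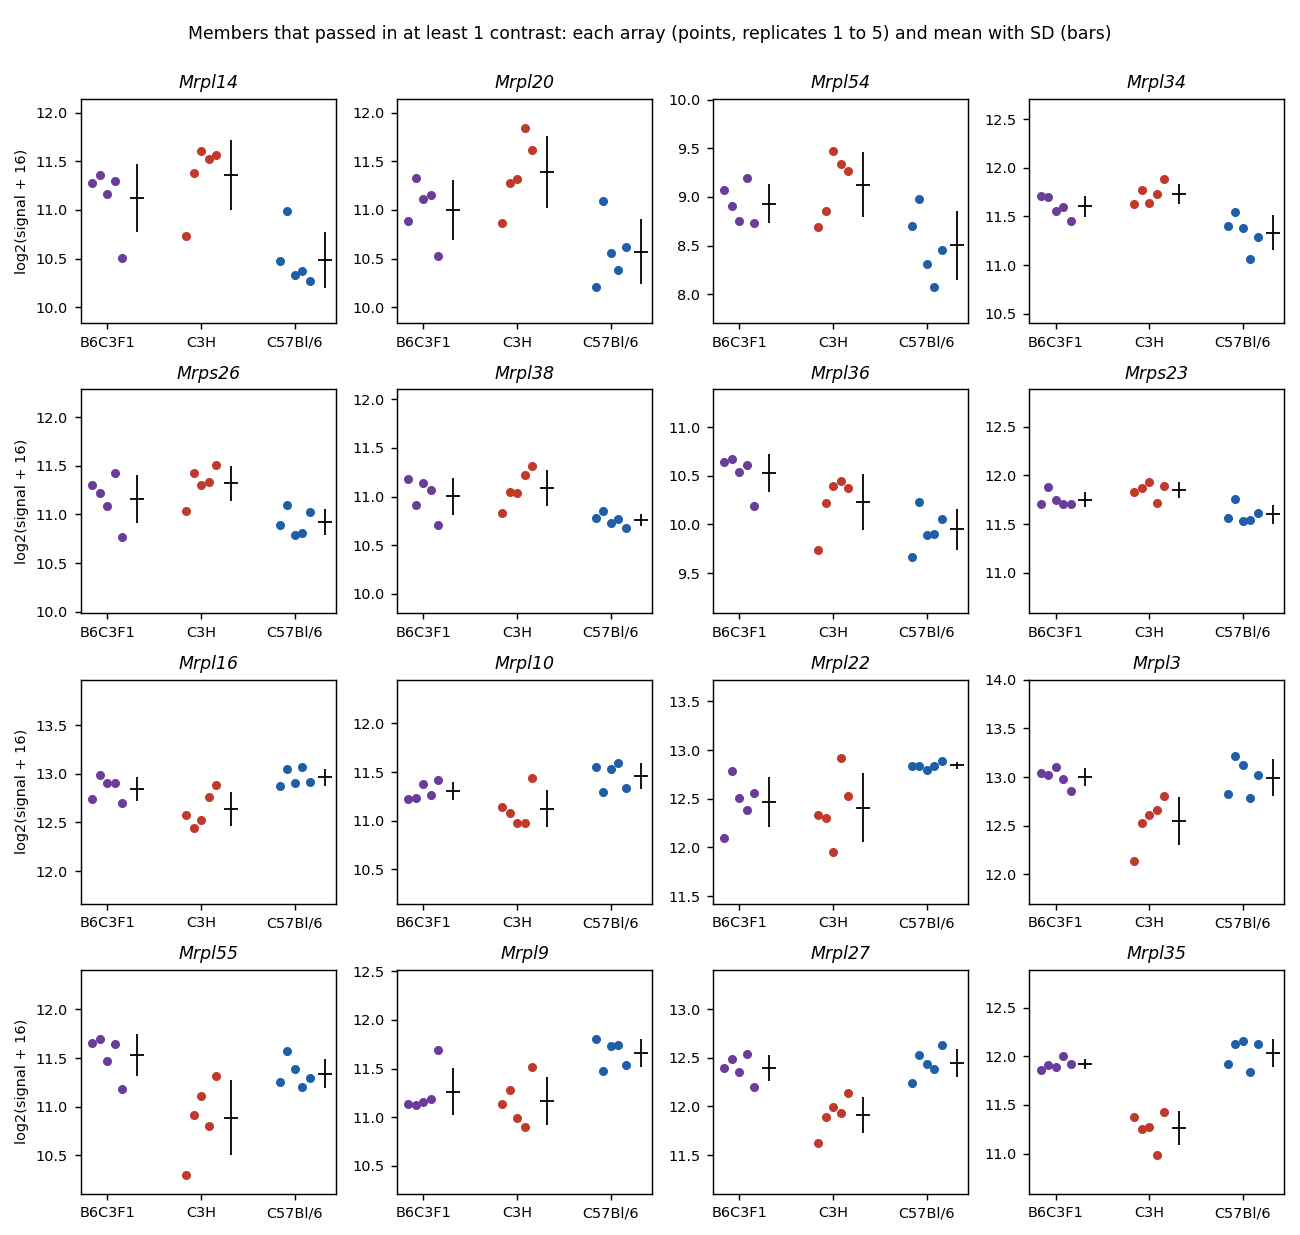
Level of the 16 members that passed in at least 1 contrast (y axis, log2(signal + 16); points, the 5 arrays of each group in replicate order, with B6C3F1, C3H and C57Bl/6 side by side; bars, mean and SD, n = 5). The C3H points lie below all others for Mrpl27 and Mrpl35, and replicate 1 of C3H and replicate 2 of C57Bl/6 close the gap between the parents for Mrpl14 and Mrpl20.

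The scaling, the RNA quality covariate and single arrays bore on these counts. With each array centred on its median, the median difference of all genes tested moved to 0.08 and that of the members to 0.18, and 11 members passed, 9 higher and 2 lower in C3H. Mrpl10, Mrpl16, Mrpl22, Mrpl3, Mrpl55 and Mrpl9 then lost their calls (adjusted p 0.186, 0.172, 0.118, 0.0831, 0.166 and 0.0606), so that the even split of higher and lower calls depends on the scaling, while Mrpl27 and Mrpl35 stayed lower. With the Gapdh ratio as a covariate, 15 members again passed in C3H minus C57Bl/6, of which 11 were among the 15 described here. Mrpl16, Mrpl22, Mrpl55 and Mrps23 then lost their calls (limma adjusted p 0.0795, 0.174, 0.076 and 0.066), and Mrpl28, Mrpl43, Mrpl51 and Mrps25 gained one. Without C3H replicate 1 the members passed as 13 higher and 6 lower, and without C57Bl/6 replicate 2 as 15 higher and 6 lower. Leaving out C3H replicate 2 gave 9 calls, C3H replicate 3 gave 9, C57Bl/6 replicate 3 gave 8 and C57Bl/6 replicate 4 gave 9. Mrpl14, Mrpl20, Mrpl34, Mrpl27 and Mrpl35 passed in C3H minus C57Bl/6 under all 31 alternatives.

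The sequence before the transcription start is shown for the 3 members whose parental arrays did not overlap, because genes of this class are known targets of NRF1 and of the ETS factor GABP, activators of nuclear genes for mitochondrial proteins. The windows are the 250 bases upstream of the start in RefSeq's table (mouse build GRCm38.p6), each given 5′ to 3′ on the strand of its gene, with any match to the motifs for NRF1, ETS factors or YY1 in capitals. Mrpl34 lies at chr8:71464676-71464925 (plus strand), Mrpl27 at chr11:94653541-94653790 (plus strand) and Mrpl35 at chr6:71823785-71824034 (minus strand).
Mrpl34: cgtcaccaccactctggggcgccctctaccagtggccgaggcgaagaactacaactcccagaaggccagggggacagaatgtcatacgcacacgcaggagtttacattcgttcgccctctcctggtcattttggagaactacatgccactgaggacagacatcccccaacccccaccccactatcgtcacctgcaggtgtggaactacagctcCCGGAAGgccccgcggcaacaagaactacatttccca
Mrpl27: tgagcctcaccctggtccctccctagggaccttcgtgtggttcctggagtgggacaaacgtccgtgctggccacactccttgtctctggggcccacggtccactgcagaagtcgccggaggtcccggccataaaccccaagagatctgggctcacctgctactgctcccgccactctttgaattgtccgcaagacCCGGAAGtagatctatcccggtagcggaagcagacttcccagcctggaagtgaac
Mrpl35: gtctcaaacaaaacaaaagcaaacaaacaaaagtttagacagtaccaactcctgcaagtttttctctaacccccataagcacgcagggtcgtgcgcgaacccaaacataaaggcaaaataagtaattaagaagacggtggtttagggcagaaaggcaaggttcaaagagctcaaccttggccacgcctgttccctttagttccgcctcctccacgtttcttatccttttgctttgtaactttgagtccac
The windows of Mrpl34, higher in C3H, and Mrpl27, lower in C3H, each held 1 ETS match, and the window of Mrpl35 held none of the 3 motifs.

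Over all members, 67 of 76 had an entry in that table, with 73 windows. The motifs were searched on both strands in members and in all 32851 windows. The latter belong to 27025 genes and were not limited to genes tested here, so the 2 sets differ in kind. The ETS and GABP motif CCGGAAG was found in 23.3% of the members' windows, against 6.91% of all windows. The NRF1 motif, GCGCA and GCGC with 1 base of any kind between them, was found in 12.3%, against 3.74%, the YY1 motif AANATGGCG in 2.74%, against 1.12%, and the SP1 motif GGGCGG in 50.7%, against 32.7%. No 2 of these motifs contain one another, though matches may overlap. Among members with a window, 2 of the 5 higher in C3H and 3 of the 8 lower in C3H had an ETS match. A match describes letters in these windows and not binding.

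Several members with known roles outside or at the edge of protein synthesis did not pass in any comparison. Mrpl12, the stalk protein that also binds mitochondrial RNA polymerase, averaged 12.99 ± 0.15 in B6C3F1, 13.06 ± 0.26 in C3H and 12.82 ± 0.29 in C57Bl/6. Mrpl44, which has a ribonuclease III fold and is mutated in an inherited human cardiomyopathy, averaged 13.05 ± 0.18 in B6C3F1, 12.96 ± 0.16 in C3H and 12.79 ± 0.20 in C57Bl/6. Mrpl58, a peptidyl-tRNA hydrolase that was taken into the large subunit, averaged 12.10 ± 0.22 in B6C3F1, 12.03 ± 0.27 in C3H and 11.87 ± 0.14 in C57Bl/6. For these 3 genes C3H minus C57Bl/6 was 0.25, 0.17 and 0.16 (limma adjusted p = 0.248, 0.331 and 0.446).

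In the small subunit, Mrps12, of the decoding centre, averaged 11.55 ± 0.15 in B6C3F1, 11.50 ± 0.17 in C3H and 11.20 ± 0.34 in C57Bl/6, and Mrps34, mutated in human Leigh syndrome, averaged 12.48 ± 0.14 in B6C3F1, 12.48 ± 0.14 in C3H and 12.27 ± 0.19 in C57Bl/6. Their differences between C3H and C57Bl/6 were 0.30 and 0.21 (limma adjusted p = 0.141 and 0.178). The 3 homologues of bacterial S18 had still smaller differences, of 0.07 for Mrps18a, 0.00 for Mrps18b and 0.10 for Mrps18c, and Mrps30 had 0.05. Mrps36 had 0.19 (adjusted p = 0.47). Over all 61 members that did not pass, the difference ran from -0.32 to 0.51, with standard errors of 0.08 to 0.21, and 41 lay above 0, 18 below and 2 at 0.00 after rounding.

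Many members have further probe sets, and these did not always show what the brightest one did. The 76 genes had 156 probe sets, of which 140 were above the filter, and 64 of those were further sets of 36 genes. Fitted together with every probe set on the array, 15 of the 64 passed in C3H minus C57Bl/6, against 13.7% of all probe sets tested. Of these 15, 7 had the same sign as a brightest set that passed, 1 had the opposite sign, and 7 belonged to genes whose brightest set did not pass. In 2 of the 15, one of Mrpl35 and one of Mrps5, the C3H mean was below the filter.

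Both further sets of Mrpl35 were lower in C3H than in C57Bl/6. One averaged 7.97 in C3H and 9.52 in C57Bl/6 (difference -1.55, limma adjusted p = 1.46e-05 over all probe sets). The other averaged 7.59 in B6C3F1 and 8.44 in C57Bl/6, but 5.62 in C3H, which is under the dim filter at 5.74, so that it was tested only because of its level in the other groups and its difference is no measured size. Mrpl3 had further sets at -0.43 and -0.99 that passed and 1 at -0.20 that did not. Mrpl9 had 2 further sets, at -0.34 and -0.69, and both passed. The further set of Mrpl27, a dim one at 8.03 in C3H and 7.97 in C57Bl/6, differed by 0.06 (adjusted p = 0.914), so that the fall of Mrpl27 rests on 1 probe set.

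Mrps23 was the gene with opposite calls. Its brightest set and another set were higher in C3H (0.25 and 0.44), while the third set, of the type whose probes can match several transcripts, was lower (8.38 in C3H and 9.37 in C57Bl/6, -0.99, limma adjusted p = 5.94e-05).

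The 7 genes called only by a further set were Mrpl11 (0.43), Mrpl15 (0.48), Mrpl47 (0.47), Mrpl48 (1.68), Mrpl51 (-0.93), Mrps25 (-0.63) and Mrps5. Their brightest sets differed by -0.04, 0.17, 0.15, 0.17, -0.25, -0.27 and -0.08 in the same order. The signs were opposite for Mrpl11. The Mrpl48 set averaged 8.71 in B6C3F1, 9.53 in C3H and 7.85 in C57Bl/6, while the brightest Mrpl48 set averaged 12.15 in B6C3F1, 12.12 in C3H and 11.94 in C57Bl/6. The Mrps5 set averaged 6.24 in B6C3F1, 4.88 in C3H and 7.05 in C57Bl/6. Its C3H mean lay below the dim filter, which it passed through its level in the other groups, so no size is given for its difference. Probe sequences were not analysed here, so sequence differences between C3H and C57Bl/6 under the probes were not checked for any member. Their part in the differences of signal, such as those of Mrpl35, Mrpl27, Mrpl48, Mrps5 and Mrps23, was not tested. Mrpl15 also had further sets at -0.01, -0.01 and -0.51, the last with a C3H mean of 5.47, under the filter.

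In 12 genes with no probe set that passed, a further set had the sign opposite to the brightest. In the large subunit, these further sets differed by -0.14 for Mrpl1, -0.77 for Mrpl17, -0.08 and -0.29 for Mrpl19, 0.21 for Mrpl21, -0.24 and -0.11 for Mrpl44, 0.58 for Mrpl49, -0.23 for Mrpl57 and -0.61 for Mrpl58. In the small subunit, they differed by -0.02 for Mrps2, -0.13 and -0.38 for Mrps9, -0.48 for Mrps14 and -0.51 for Mrps21. The sets of Mrpl17 and Mrps21 had C3H means of 5.66 and 5.72, under the filter. The sign of a member's difference thus rests on the choice of probe set for these genes.

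**Figure D3:**
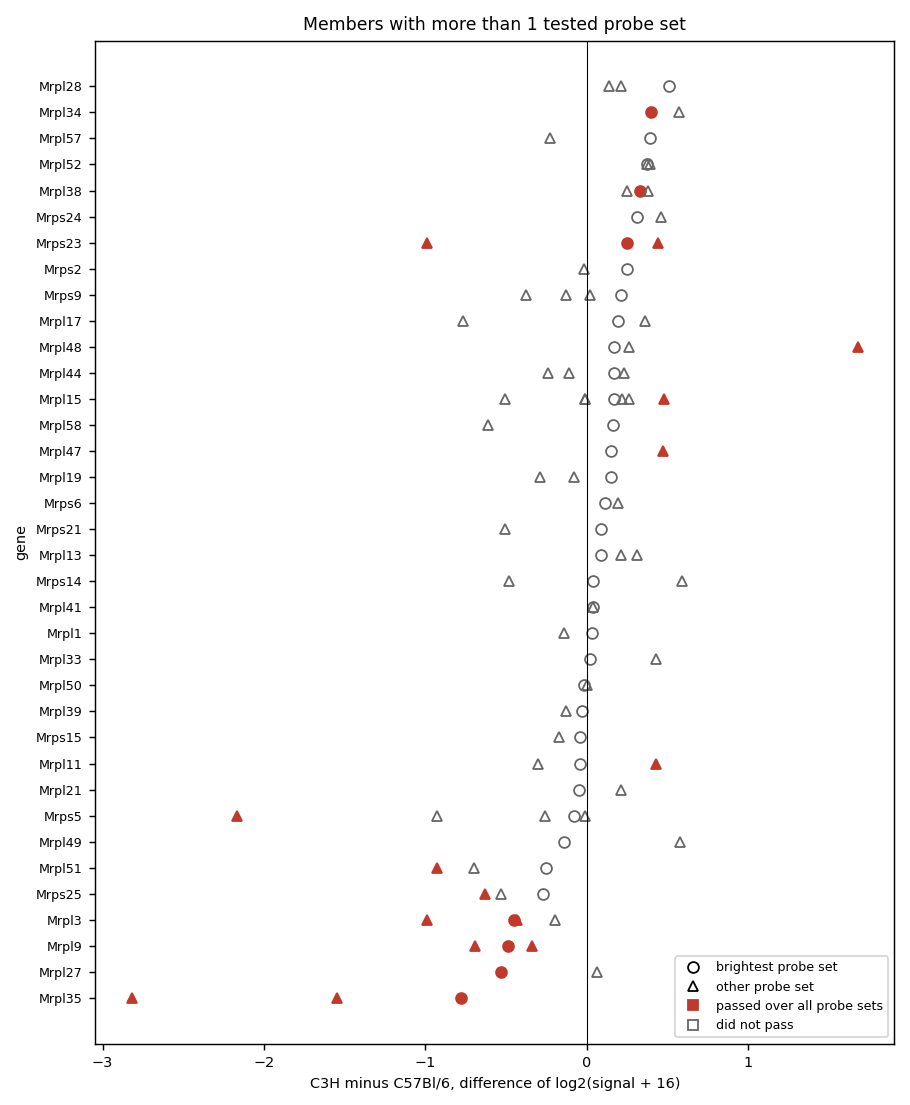
C3H minus C57Bl/6 for each tested probe set of the 36 members that have more than 1 (x axis, difference on the log2(signal + 16) scale; circles, brightest probe set; triangles, further sets; filled red, passed over all probe sets; open, did not pass). A further set of Mrpl35 lies at -1.55, that of Mrpl48 at 1.68, and those of Mrps23 on both sides of 0, while the points of Mrpl35 at -2.82 and of Mrps5 at -2.17 are sets whose C3H mean was under the dim filter.

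In the hybrid, few members differed from either parent. B6C3F1 minus C57Bl/6 gave 1 member that passed, which is 1.32%, against 3.83% of all genes in either direction and 2.06% in the higher one. It was Mrpl36, whose product is one of the smallest proteins of the large subunit, with 10.64, 10.67, 10.54, 10.61 and 10.19 in B6C3F1, 9.74, 10.22, 10.39, 10.45 and 10.37 in C3H and 9.67, 10.23, 9.89, 9.90 and 10.06 in C57Bl/6. The B6C3F1 arrays other than replicate 5 lay above all C57Bl/6 arrays. The difference was 0.58 ± 0.14, or 1.5-fold (limma adjusted p = 0.0218), and 7 of the 15 fits that left out 1 array lost the call (adjusted p up to 0.0707).

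By their brightest sets, the other 75 members did not pass between B6C3F1 and C57Bl/6. In the fit of every probe set 7 members passed, 3 as higher and 4 as lower in B6C3F1. The median difference of the brightest sets between B6C3F1 and C57Bl/6 was 0.14, against 0.008 for all genes, and 55 of 76 members lay above 0. At an unadjusted p under 0.05 there were 21 members, 19 higher and 2 lower, or 27.6%, against 20.3% of all genes. The count that passed depended on single arrays: 12 members, all higher, passed without C57Bl/6 replicate 2, 6 without B6C3F1 replicate 5, 3 without C3H replicate 1 and 0 without any one of B6C3F1 replicates 1 to 4 or C57Bl/6 replicates 1, 3 and 4. With array weights 15 passed, of which 14 were higher.

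Groups did not overlap for 2 members, Mrpl22 and Mrps9, or 2.63%, against 6.16% of all genes. Mrpl22 lay below C57Bl/6 in all 5 B6C3F1 arrays, at 12.10 to 12.79 in B6C3F1 against 12.80 to 12.89 in C57Bl/6, but did not pass (-0.37, limma adjusted p = 0.138). Mrps9, a small-subunit core protein, had 11.99 to 12.04 in B6C3F1 and 11.76 to 11.97 in C57Bl/6 and did not pass either (0.17, adjusted p = 0.294).

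B6C3F1 minus C3H gave 4 members that passed, all higher in B6C3F1, or 5.26%, against 6.2% of all genes in either direction and 3.59% in the higher one. All 4 were among the members lower in C3H than in C57Bl/6, and both comparisons use the same C3H arrays. Mrpl35 was 1.57-fold higher in B6C3F1 (0.65, limma adjusted p = 0.000161), Mrpl55 1.56-fold (0.64, adjusted p = 0.0116), Mrpl27 1.40-fold (0.48, adjusted p = 0.00518) and Mrpl3 1.37-fold (0.45, adjusted p = 0.0188). With a covariate for the poly-A control signal, 1 of the 4 passed, Mrpl35, while Mrpl55, Mrpl27 and Mrpl3 had adjusted p of 0.0927, 0.0599 and 0.0928. With each array centred on its median, Mrpl27 and Mrpl3 did not pass (0.0587 and 0.097). Leaving out B6C3F1 replicate 3 ended the call of Mrpl3 (0.0513), as did the Gapdh covariate (0.0594).

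By brightest set, no member passed as lower in B6C3F1 than in C3H, and 1 was lower in limma at an unadjusted p under 0.05, beside 9 higher. Those 10 make 13.2% of the members, against 19.7% of all genes. In the fit of every probe set, 5 members passed as higher and 2 as lower. The lower ones were further sets of Mrpl48 (-0.82, limma adjusted p = 0.000499) and Mrpl47 (-0.42, adjusted p = 0.0473). Groups did not overlap for 4 members, Mrpl3, Mrpl27, Mrpl35 and Mrps21, or 5.26%, against 6.4% of all genes. Mrps21, a small-subunit protein with a bacterial counterpart, had 11.27 to 11.67 in B6C3F1 and 10.91 to 11.23 in C3H and did not pass (0.33, limma adjusted p = 0.145).

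Against the mean of both parents, 0 members passed in limma, against 0.633% of all genes. At an unadjusted p under 0.05 there were 11, all higher in B6C3F1, or 14.5%, against 14.7% of all genes. The median difference was 0.07, against 0.026 for all genes, and 59 of 76 members lay above 0. Leaving out B6C3F1 replicate 5 let Mrpl36 pass (0.53, adjusted p = 0.0448).

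The hybrid lay between the parents for most members that differed between them. On a scale where the C57Bl/6 mean is 0 and the C3H mean is 1, B6C3F1 stood at 0.53 to 0.73 for the 7 members higher in C3H, with a median of 0.68, so that all 7 were nearer C3H. For the 8 members lower in C3H the median was 0.26, with 6 nearer C57Bl/6 and 2, Mrpl22 at 0.86 and Mrpl9 at 0.80, nearer C3H. Mrpl55 at -0.41 and Mrpl3 at -0.01 lay outside the parental means. These positions describe members chosen for their parental difference and were not tested.

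Some proteins of the same ribosome are encoded by genes with other names. Of 5 such genes listed, 4 were tested, and 2 of them were lower in C3H than in C57Bl/6. That is 50%, against 8.4% of all genes lower and 15.7% passing in either direction. The list was chosen with earlier results of these data known, so its share is a description only. Ptcd3, which helps the small subunit to receive messenger RNA, had 11.64, 11.62, 11.42, 11.67 and 11.60 in B6C3F1, 10.68, 11.16, 10.82, 10.87 and 11.15 in C3H and 11.70, 12.05, 12.04, 11.58 and 11.95 in C57Bl/6. As with Mrpl35, every C3H array was below every other array, and C3H was 1.90-fold lower than C57Bl/6 (-0.93, limma adjusted p = 5.46e-06). Mrpl35 and Ptcd3 both lie on chromosome 6, and the part of their position in this likeness was not tested. Gadd45gip1, a large-subunit protein at the tunnel exit, averaged 10.71 in B6C3F1, 9.75 in C3H and 10.72 in C57Bl/6, 1.96-fold lower in C3H than in C57Bl/6 (-0.97, adjusted p = 0.00688). Ptcd3 and Gadd45gip1 were also higher in B6C3F1 than in C3H (0.65 and 0.97, limma adjusted p = 0.00104 and 0.0168). Dap3, the GTP-binding protein of the small subunit, differed between C3H and C57Bl/6 by -0.08 and Chchd1 by 0.20, and neither passed.

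Of 11 translation factors tested, 3 were lower in C3H than in C57Bl/6 and none higher, with 1 higher in limma at an unadjusted p under 0.05. The 3 are 27.3% of the factors, against 8.4% of all genes lower and 15.7% passing in either direction. The initiation factor Mtif2 averaged 10.35 in B6C3F1, 9.78 in C3H and 10.97 in C57Bl/6, 2.28-fold lower in C3H (limma adjusted p = 1.81e-05). The elongation factor Gfm1 was 1.30-fold lower (adjusted p = 0.00119), and Mtfmt, which formylates the initiator transfer RNA, was 1.59-fold lower (adjusted p = 0.00122). Of 19 genes for aminoacyl-tRNA synthesis, 2 were higher, Aars2 (0.50) and Nars2 (0.36), and 4 lower, Cars2 (-0.97), Vars2 (-0.57), Gatb (-0.56) and Fars2 (-0.39), or 10.5% and 21.1%, against 7.26% higher and 8.4% lower of all genes. Of 23 genes for assembly and rRNA modification, 2 were higher, Ngrn (0.57) and Mettl17 (0.57), and 3 lower, Trmt61b (-1.13), Mrm3 (-0.47) and Rpusd4 (-0.40), or 8.7% and 13%. Of 7 genes for mitochondrial transcription and messenger RNA stability, 0 passed in limma, and 1 was lower at an unadjusted p under 0.05. The medians of these lists were -0.50 for the other ribosome proteins, 0.00 for the factors, -0.13 for the synthetases, -0.05 for assembly and 0.01 for transcription, beside 0.08 for the members. None of these shares was tested against that of all genes.

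The members also varied together among mice of the same strain. With each strain's mean removed, the average correlation between 2 members over the 15 arrays was 0.38, against 0.00 between 2 genes of all those tested. It was 0.37 within the large subunit, 0.41 within the small subunit and 0.38 between the subunits. Of the 76 members, 53 had a correlation above 0.5 with the mean of the other members, with Mrps18c (0.96), Mrpl41 (0.95) and Mrps16 (0.94) at the top. The exceptions included 5 members below 0: Mrps2 (-0.06), Mrpl37 (-0.14), Mrpl10 (-0.21), Mrpl9 (-0.27) and Mrps15 (-0.49). These correlations are descriptions, since the members share the arrays, the RNA and the labelling reaction of each mouse. All arrays were also scaled to nearly the same trimmed mean, and no gene set of like level was compared. The 0.00 of all genes is therefore no baseline for bright genes.

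Single arrays stood out in this. On C3H replicate 1 the members averaged 0.26 below the C3H mean, and 53 of 76 had their lowest C3H value there (69.7%, against 25.1% of all genes). C3H replicate 5 had the highest value for 47 members (61.8%, against 25.2%). In B6C3F1, replicate 5 had the lowest value for 45 members (59.2%, against 25.1%). In C57Bl/6, replicate 2 had the highest for 51 members (67.1%, against 23.7%), while replicates 1 and 4 had the lowest for 30 and 31. The spread itself was small, with a median SD within strains of 0.20 for the members and 0.26 for all genes tested, whose median level was lower.

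Other measures moved on the same arrays. Endothelial markers were above their strain mean by 0.40 on C3H replicate 1 and 0.48 on B6C3F1 replicate 5, and below it by 0.20 on C57Bl/6 replicate 2, although on C3H replicate 5 they were 0.06 above it. The members were low on B6C3F1 replicate 5 and C3H replicate 1 and high on C3H replicate 5 and C57Bl/6 replicate 2. In that order of arrays, the only adipocyte marker above the filter, Fabp4, deviated by -0.34, -0.38, 0.34 and 0.24, with the same sign as the members on all 4, while Adipoq was below the filter. The 2 skeletal muscle markers above the filter, Acta1 and Ckm, which heart muscle also makes, deviated by 0.26, -0.49, 0.83 and 0.58, fibroblast markers by 0.08, -0.34, 0.56 and 0.15, macrophage markers by -0.06, -0.18, 0.34 and -0.06 and cardiomyocyte markers by -0.07, -0.08, 0.16 and 0.07. Cardiomyocyte markers too had the sign of the members on all 4 arrays. The members were also low on C57Bl/6 replicates 1 and 4, at -0.13 and -0.15 from that strain's mean. In that order, Fabp4 deviated there by -0.11 and -0.12, fibroblast markers by -0.52 and -0.06 and macrophage markers by -0.32 and -0.19. Skeletal muscle markers deviated by -0.16 and -0.43, endothelial markers by 0.02 and -0.04, and cardiomyocyte markers by 0.20 and 0.13, opposite to the members. The part of any of these in the shared movement of the members was not tested. The 4 other ribosome proteins had an average correlation of 0.39 with the members. That average was 0.12 for the translation factors, 0.06 for the synthetases, 0.07 for the assembly genes and -0.08 for the transcription genes. Of those 4 ribosome proteins, Dap3 went against the members on C3H replicates 1 and 5, at 12.89 and 12.72 around a C3H mean of 12.77.

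**Figure D4:**
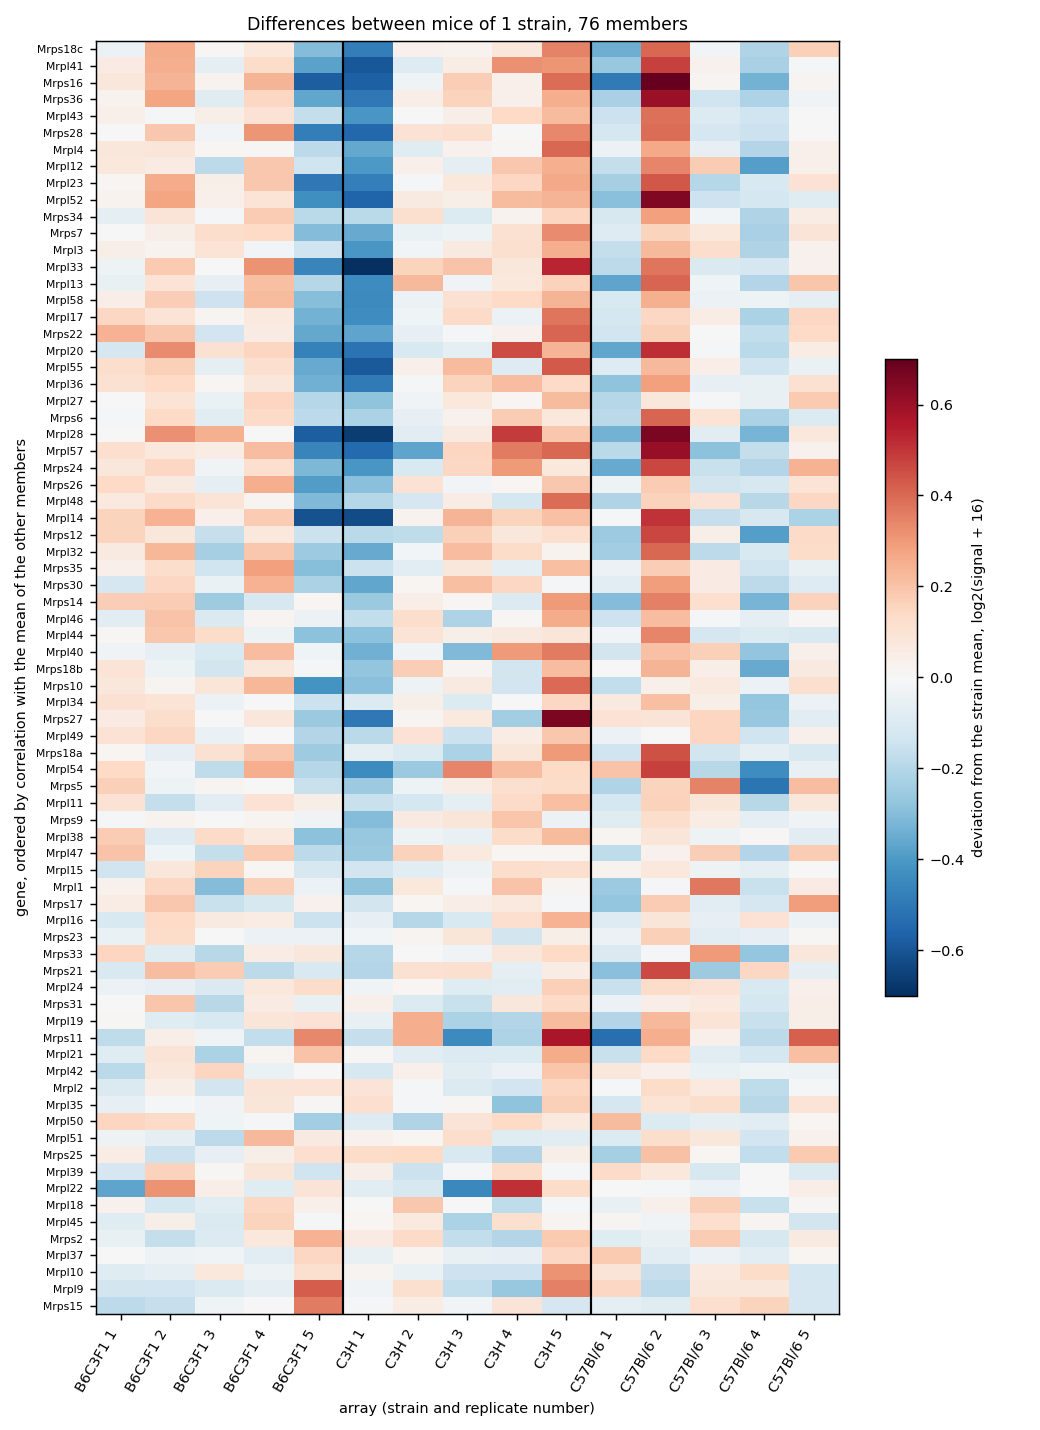
Deviation of each member from its strain mean on each array (rows, the 76 members ordered by their correlation with the mean of the others; columns, arrays by strain and replicate; colour, deviation on the log2(signal + 16) scale, red above and blue below). C3H replicate 1 and B6C3F1 replicate 5 are low and C57Bl/6 replicate 2 and C3H replicate 5 high for most rows, and the bottom 5 rows, the members with correlations below 0, do not follow.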

How the data were processed

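RNA of 15 hearts was measured on Affymetrix arrays after amplification from 50 ng of total RNA. The authors deposited log2 values, 1 per probe set, and the submitters' processing notes name MAS5, with no version given in the sources used here. The scaling was read from the values, whose 2% trimmed mean on the linear scale was close to 500.26 on every array. No detection call was used, and the number of arrays limits the precision. Among 45096 probe sets there were 64 controls, 34940 with a single gene symbol, 932 with more than 1 and 9160 for which none was given. Of the single symbols, 34736 matched a gene of the GRCm38.p6 table and 0 symbols changed.

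A constant of 16 was added to the linear signal before log2 was taken again, which understates differences of dim genes. Probe sets below the 40th percentile of mean level (5.74) were left out, and each gene was represented by its brightest set. limma 3.58.1 (R 4.3.3; lmFit, and eBayes with its trend option) tested the differences over 13107 genes and all 15 arrays, with Benjamini-Hochberg adjustment, and an adjusted p under 0.05 counted as a pass. There were 4 contrasts: each pair of strains, and B6C3F1 against the mean of the parents. The same steps were tested on simulated data.

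The rule named every member that passed in any contrast, 10 members with known further roles, and members whose probe sets disagree. Mrps9 and Mrps21, and the members listed by their correlation, were named after their values were seen. The members and gene lists were chosen with earlier results of these data known. The labels give every array a mouse of its own. Sample numbers run in 1 block per strain, so that handling order and strain cannot be told apart, and the labels give no hybridisation batch. The replicate numbers showed no clear pairing of the arrays. Same-numbered arrays of different strains had correlations of -0.06 to 0.13 in their deviations from the strain means (median 0.01), with 2 of 15 pairs over 0.1. Arrays of different number had -0.23 to 0.22 (median -0.01), with 2 of 60 pairs over 0.1.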

Additional observations from a re-analysis of the deposited data

Results flagged for a closer look

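In these genes, 1 array stood apart from the other 4 of its strain, by a gap to its nearest neighbour of more than 0.71 of the range of the 5. Chance gives such a gap in about 1 of 20 groups, and 12 of 81 groups examined showed it.

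B6C3F1 replicate 5 was apart for 3 members. Mrpl14 had 10.51 there, against 11.16 to 11.36 on the other B6C3F1 arrays. Mrpl36 had 10.19, against 10.54 to 10.67. Mrpl9 was apart upward, with 11.69, against 11.13 to 11.19.

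C3H replicate 1 was low for 3 members. Mrpl14 had 10.73, against 11.38 to 11.60 on the other C3H arrays. Mrpl44 had 12.68, against 13 to 13.05, and Mrps36 had 11.39, against 11.93 to 12.15.

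C57Bl/6 replicate 2 was high for 5 members. Mrpl14 had 10.99, against 10.27 to 10.47 on the other C57Bl/6 arrays, and Mrpl44 had 13.13, against 12.67 to 12.77. Mrpl58 had 12.12, against 11.76 to 11.83. Mrps18a had 12.57, against 11.99 to 12.06, and Mrps36 had 12.30, against 11.47 to 11.67.

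The last was Mrps23 on B6C3F1 replicate 2, at 11.88, against 11.71 to 11.75. The members varied together within strains, so these are not 12 separate events, and their cause was not tested.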

How the results depend on the processing

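Alternatives to the processing numbered 31, of which 15 left out 1 array each, and 1, chosen after seeing the data, left out the C3H and C57Bl/6 arrays of extreme poly-A signal (10 members then passed in C3H minus C57Bl/6). No named difference that passed changed direction. In the fit of every probe set, though, each gene was followed here by its brightest set. The Mrps23 set with the opposite call could therefore not count as a change of direction. For C3H minus C57Bl/6 (15 members passed), leaving out 1 array gave 8 to 21, and no other alternative moved the count by over 1.5 times. For B6C3F1 minus C57Bl/6 (1 member), the count was 2 with the 60th percentile filter, 7 with every probe set, 0 without the eBayes trend (16 at an unadjusted p under 0.05), 3 with only the strains compared and 15 with array weights, and leaving out 1 array gave 0 to 12. For B6C3F1 minus C3H (4 members), it was 2 after centring, 7 with every probe set and 1 with the poly-A signal as covariate, and 3 to 5 with 1 array left out. Against the mean of the parents (0 members), array weights gave 2, and leaving out 1 array gave 0 to 1. Except for arrays left out and probe sets added, the cause was not tested. Among the 26 members the naming rule took, 3072 values had the same outcome as in the main fit. Most of these passed in neither fit, so their number is no measure of calls kept. A further 97 values lost a call of the main fit and 25 gained one. With the replicate number as a block, 13, 3, 4 and 0 members passed in the 4 contrasts. The numbers showed no clear pairing of the arrays, though, and 4 of 15 arrays correlated best with one of their own number. All members were above the dim filter, with Mrpl54 and Mrps11 the dimmest.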
